A study of Mus musculus with 16 samples.

Results

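The regions described here were open in vehicle-treated macrophages, were missing after the LXR agonist T0901317 (T0) alone, and were open again, or still open, whenever lipopolysaccharide (LPS) was present, with or without T0. Peaks of 4 lists of accessible macrophage enhancers, 1 per treatment, were merged wherever they overlapped by at least 1 bp. Of 37648 merged regions, 1876 held a peak in the Veh, LPS and T0-LPS lists and none in the T0 list. That is 4.98% of all regions and 6.63% of the 28315 regions that Veh, LPS and T0-LPS all held. The regions were chosen by the presence or absence of a peak in these lists, so the scores of their peaks in the 4 lists are given as description, without a test.

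ATAC-seq, which maps chromatin that the Tn5 transposase can enter, had been done on bone marrow-derived macrophages (BMDMs) of wild-type C57BL/6J mice, females of 8 to 10 weeks by the study's methods, from 50000 cells per library. On culture day 8 the cells received DMSO (Veh) or 500 nM T0 for 3 h in serum-free medium with L-cell conditioned medium, and 10 ng/mL LPS was then added to the LPS and T0-LPS cells, which were kept for 2 h more. The LPS-treated cells were therefore collected 2 h later than the cells without LPS, so the effect of LPS and of the added time cannot be told apart. Each group had 4 libraries, but the study called peaks on the 4 together, so there was 1 list per group, and no spread between replicates could be given for any value below.

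The lists held 35551 peaks for Veh, 29839 for T0, 33181 for LPS and 31085 for T0-LPS. A peak's score, in arbitrary units set by the peak caller, grows with the strength of the evidence and with the number of reads pooled, and the depth of the lists is unknown. A region's rank was therefore used to compare lists: the percentile of its highest score among the 28315 regions that Veh, LPS and T0-LPS shared. Scores printed for single regions are each list's own, and a score can fall from one list to another while the rank rises. The label of macrophage was checked at the start sites of marker genes. Of 8 macrophage markers, 7 had a Veh or T0 peak within 1 kb of a transcription start site (TSS) and all 8 an LPS or T0-LPS peak, whereas of 6 T cell markers and 4 hepatocyte markers none did in any list. A single neutrophil marker (S100a8) of 6 and a single B cell marker (Ms4a1) of 5 had a peak in every list, and of 5 fibroblast markers 2 had one in Veh, 1 in T0 and none after LPS. What part such cells had in the regions was not tested.

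LXRs are nuclear receptors that sense oxysterols and, as partners of RXR, switch on genes of cholesterol efflux, while their agonists lower the expression of many inflammatory genes in macrophages. LPS is recognised by TLR4 with its partners CD14 and MD-2, and the adaptors MYD88 and TRIF then activate NF-kB, AP-1 and IRF transcription factors. These factors act on enhancers that PU.1, C/EBP and other lineage factors hold accessible in macrophages.

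Of the 35222 regions with a Veh peak, 18.1% had no T0 peak. Within these 6365 regions, the 1876 that both LPS lists held made up 29.5% (95% Wilson interval 28.4 to 30.6, which covers counting error only). A larger share, 45.7%, was held by Veh alone, 18.7% by Veh and LPS, and 6.08% by Veh and T0-LPS. The plot of regions by list shows that absence from the T0 list alone was more frequent than absence from any other single list: 1122 regions lacked only a T0-LPS peak, 323 only an LPS peak and 51 only a Veh peak. The T0 list was also the shortest. With the 3 others shortened to its 29839 strongest peaks, 745 regions met the rule in place of 1876.

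**Figure D1:**
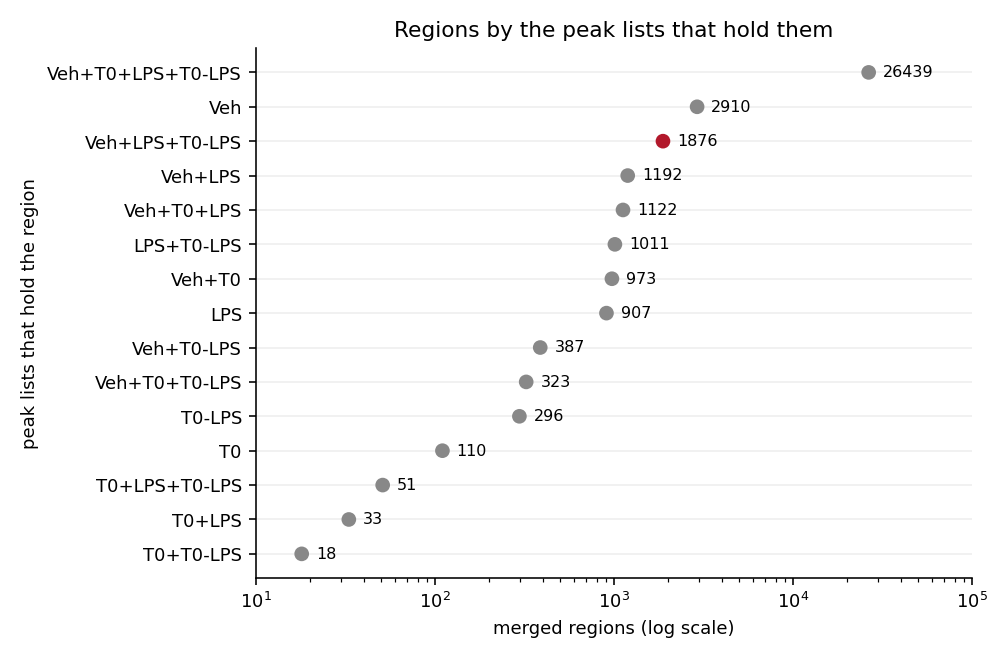
Number of merged regions (horizontal axis, log scale) for each combination of the 4 peak lists that hold a peak there (vertical axis), with the 1876 regions held by Veh, LPS and T0-LPS in red. They are the third most frequent combination after the 26439 regions in all 4 lists and the 2910 in Veh alone.

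Sequences of 6 of the regions are shown because they carry the motif matches on which the results below turn. Each is the central 200 bp of the merged region on the plus strand of GRCm38, from the RefSeq assembly, named by the protein-coding gene with the nearest TSS. Capitals mark matches to any of the motifs searched on both strands. In Il12b they are, from left to right, RUNX, NF-kB and PU.1; in Icam1, 2 RUNX and then 2 NF-kB matches; in Lpl, AP-1 and then NF-kB; in Rsad2, 2 IRF matches; and in Tab2, IRF and then AP-1. Nfkbiz is shown as a region without a match. The Il12b, Lpl, Tab2 and Nfkbiz windows came from a rule (highest Veh score among the regions with no missing T0 number near a gene list), which for Tab2 passed over the Myd88 region because its window overlaps an untranslated region, and the Icam1 and Rsad2 windows were picked after their values were seen.
Il12b chr11:44390176-44390375: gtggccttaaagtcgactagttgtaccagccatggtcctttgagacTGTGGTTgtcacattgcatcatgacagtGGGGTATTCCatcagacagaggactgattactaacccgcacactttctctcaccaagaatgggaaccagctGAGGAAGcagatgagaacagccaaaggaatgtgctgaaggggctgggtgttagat
Icam1 chr9:21021974-21022173: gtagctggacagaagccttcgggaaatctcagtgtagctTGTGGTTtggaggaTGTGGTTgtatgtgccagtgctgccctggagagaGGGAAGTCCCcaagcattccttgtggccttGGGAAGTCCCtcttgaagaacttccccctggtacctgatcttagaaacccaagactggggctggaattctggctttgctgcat
Lpl chr8:68911722-68911921: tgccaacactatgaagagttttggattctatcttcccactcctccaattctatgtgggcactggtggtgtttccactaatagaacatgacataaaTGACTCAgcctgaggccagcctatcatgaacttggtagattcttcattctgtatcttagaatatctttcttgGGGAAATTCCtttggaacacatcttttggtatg
Rsad2 chr12:26439418-26439617: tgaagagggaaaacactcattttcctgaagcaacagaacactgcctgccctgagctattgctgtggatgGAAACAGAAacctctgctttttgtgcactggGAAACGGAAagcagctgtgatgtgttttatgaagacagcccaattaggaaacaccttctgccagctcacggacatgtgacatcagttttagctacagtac
Tab2 chr10:7923526-7923725: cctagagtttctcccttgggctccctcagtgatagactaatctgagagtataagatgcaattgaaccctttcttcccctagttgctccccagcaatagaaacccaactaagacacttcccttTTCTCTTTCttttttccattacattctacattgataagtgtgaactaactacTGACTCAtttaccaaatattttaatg
Nfkbiz chr16:55795593-55795792: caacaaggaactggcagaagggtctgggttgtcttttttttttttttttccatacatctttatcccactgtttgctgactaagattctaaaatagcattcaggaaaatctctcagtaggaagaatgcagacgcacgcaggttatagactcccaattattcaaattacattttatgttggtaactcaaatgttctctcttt

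The 1876 regions were weak peaks in Veh. Their Veh scores ran from 41 to 1258 with a median of 150 (quartiles 112 and 199), and only 48 of them (2.56%) reached the median score of the Veh list. In LPS the median was 154 (118 to 217) and in T0-LPS 128 (100 to 174), with 190 regions (10.1%) and 129 regions (6.88%) at or above the median of their list. By rank, 69.5% of them lay in the lowest decile of Veh, where 45.8% of all regions shared by Veh, LPS and T0-LPS had no T0 peak. That share was 14.1% in the second decile, 3.70% in the third and at most 0.871% above it. In the LPS ranks the lowest decile held 45.4% of the regions and in the T0-LPS ranks 44.8%, so the regions were spread further up the scale in both LPS lists than in Veh. Nearly all of them, 1842 (98.2%), consisted of exactly 1 peak in each of the 3 lists, and the median merged width was 311 bp.

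**Figure D2:**
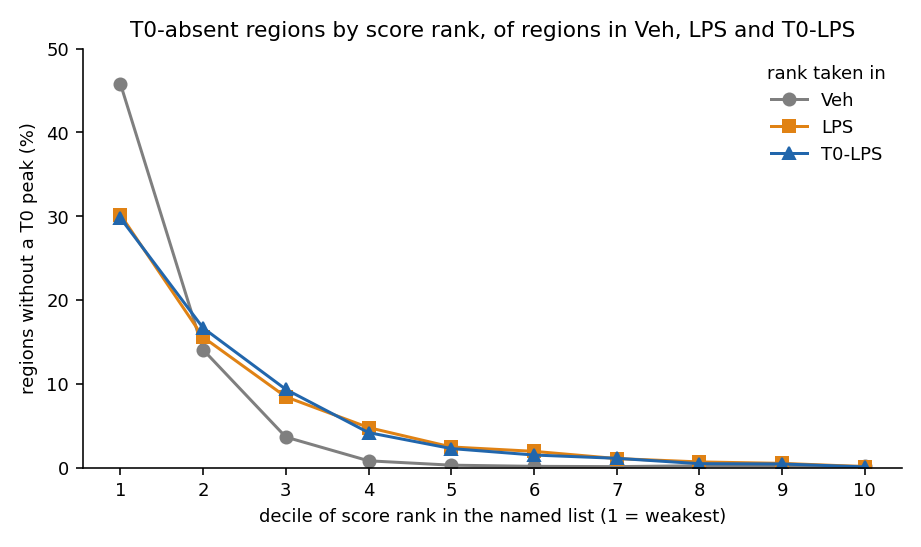
Share of regions without a T0 peak (vertical axis, %) among regions held by Veh, LPS and T0-LPS, by decile of their score rank in the Veh (grey circles), LPS (orange squares) or T0-LPS list (blue triangles). The share falls from 45.8% to 14.1% over the lowest 2 Veh deciles, and from 30.2% to 15.6% in LPS.

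The T0 list carries gaps that bear on the rule. Peaks are numbered along each chromosome in every list, and a peak that was called but not kept as an enhancer would leave a missing number. For 1200 of 1875 regions (64.0%, 61.8 to 66.1) the T0 peaks on either side had consecutive numbers, so the numbering left no place for a further T0 peak between them. For the other 675 (36.0%) at least 1 number was missing, and a T0 peak called and not kept cannot be told apart from no T0 peak. The last region had no T0 peak on one side of it. Other regions without a T0 peak had consecutive numbers about as often. The share was 61.9% for those held by Veh alone, 62.7% for Veh and LPS, 61.0% for Veh and T0-LPS and 69.0% for LPS and T0-LPS only. Within the set the missing numbers were not spread evenly. They were found at 33.1% of its regions in the lowest Veh decile, at 39.2% of those ranked between 10 and 50 and at all 32 ranked 50 or more. The strongest region of all, in an intron of Nckap1, a subunit of the WAVE actin regulator, scored 1258 in Veh, 1482 in LPS and 1301 in T0-LPS and had 1 number missing. A region 52 bp upstream of a TSS of Bicdl1, at 1218, 1143 and 1005, likewise had 1. The named regions below have no missing number unless the text says so.

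Some regions met the rule narrowly. The T0 peaks nearest to any of them ended 51 bp away near H2afz, 57 bp away near Zxdb and 77 bp away in an intron of Zfp710, and 401 regions (21.4%) had a T0 peak within 1 kb. Just outside it, regions near Gm5148, Larp4b and Zfp217 were held by all 4 lists with T0 scores of only 36, 38 and 45. Their Veh scores were 149, 80 and 142, inside the range of the 1876 regions.

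The regions moved up the ranks between Veh and the LPS lists. In LPS 66.7% of them ranked higher than in Veh, and in T0-LPS 67.1%, against 48.7% and 49.0% of the 26439 regions in all 4 lists. Both rises together were found in 53.9% (1011 regions), and falls in both lists in 20.0% (376), against 36.4% and 38.7% of the regions in all 4 lists. A rise of more than 20 percentile points in both was found in 230 regions and such a fall in 6. A region ranked below 20 in Veh could not fall that far. The lowest 2 Veh deciles held 69.5% and 21.4% of the regions, so these 2 counts cannot be compared. Of the 1813 regions held by all 4 lists whose Veh score lay between 112 and 199, however, 68.8% ranked higher in LPS and 69.9% in T0-LPS, so weak Veh regions that kept a T0 peak moved by as much. With percentiles taken in each whole list, the share of the regions of the set that ranked higher in T0-LPS than in Veh was 49.9%, and in LPS 59.0%. Between LPS and T0-LPS, 51.9% ranked higher in LPS, against 49.3% of the regions in all 4 lists, and the median difference was 0.290 points. With percentiles in each whole list that share was 64.3%.

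The rises described next are the 6 largest in both LPS lists among regions with no missing T0 number. A region 9787 bp upstream of Il12b, which encodes the p40 subunit shared by IL-12 and IL-23, lies between genes at chr11:44389929-44390622. It scored 243 in Veh, 751 in LPS and 775 in T0-LPS, and its rank went from 18.4 to 85.3 and 90.3. The nearest T0 peak was 8337 bp away. This is the region whose window above holds a RUNX, an NF-kB and a PU.1 match.

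A region at chr16:93141985-93142597, 316142 bp upstream of Runx1, a transcription factor of blood cell development, had the largest of these rises. Its score was 65 in Veh, 577 in LPS and 576 in T0-LPS, which took it from the lowest percent of the ranks to 73.2 and 78.9. Fpr1, the receptor of formylated bacterial peptides, held a region in an intron that went from 199 to 580 and 528. The others of these 6 lay near St3gal1, a sialyltransferase (71, 528 and 469), in an intron of Nsmce2, a SUMO ligase (57, 507 and 462), and in an intron of Bahcc1 (112, 475 and 425). All 6 ranked above 60 in both LPS lists. Where T0 numbers were missing, large rises were also found, as in an intron nearest to Itgb8, the integrin β8 subunit (84, 811 and 649, 2 numbers missing). Others lay near Bhlhe40 (174, 964 and 713, 1 missing) and near Hs1bp3 (135, 683 and 534, 1 missing).

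The 6 largest falls, also among regions with no missing T0 number, were smaller. A fall cannot exceed the Veh rank, which was low for most of the regions. The region nearest to Mrpl17, a mitochondrial ribosomal protein, scored 417 in Veh, 126 in LPS and 103 in T0-LPS, and its rank fell from 44.3 to 6.29 and 5.66. Regions in introns of Adk, the adenosine kinase (317, 111 and 96), and Lrch1 (330, 132 and 136) fell likewise, as did one 65381 bp upstream of Lpin2, a phosphatidate phosphatase (336, 142 and 118). The set was completed by a region at the start of the stress kinase gene Map3k20 (380, 161 and 160) and one nearest to Tmem131 (307, 126 and 118). None of these 6 held an NF-kB or an IRF match, which 20.0% of the set held. Among the 6 largest rises only the Il12b region held either, so these few regions show no clear contrast.

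A few regions differed between LPS with and without T0. In an intron of Itgav, the integrin αv subunit, the score was 135 in Veh, 126 in LPS and 285 in T0-LPS, and the rank was 6.29 in LPS and 44.9 in T0-LPS. Regions near the chemokine receptor gene Xcr1 (127, 104 and 218) and at the start of the potassium channel gene Kcnk13 (140, 111 and 207) followed the same order. In the opposite direction, a region 3722 bp upstream of Agpat3, a lysophospholipid acyltransferase, scored 78 in Veh, 400 in LPS and 145 in T0-LPS. It held a nuclear receptor half-site and a match, with up to 2 mismatches, to DR4, the direct repeat with a 4-bp spacer to which LXR-RXR binds. Introns of Dnajc15 (105, 337 and 110) and Zfp91 (142, 400 and 174) held the other 2 of these falls. A DR4 match was also held by a region upstream of Ccl5 that ranked higher in T0-LPS (28.5) than in LPS (21.0). Over all 1876 regions a rank higher in LPS than in T0-LPS by more than 20 points was found in 63 and one lower by more than 20 points in 30. The same counts were 607 and 577 of the 26439 regions in all 4 lists. They were 42 and 51 of the 1813 of those whose Veh score lay between 112 and 199.

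Among regions with no missing number, those that ranked highest in all 3 lists at once lay in introns of Mef2c, a transcription factor (323 in Veh, 278 in LPS and 271 in T0-LPS), of Rptor, the mTORC1 scaffold (317, 272 and 192), of the costimulatory ligand gene Cd80 (290, 309 and 200) and of the adhesion adaptor gene Lims1 (298, 277 and 183). The others lay 44312 bp from the start of Wee1, a cell cycle kinase (286, 329 and 279), 170782 bp upstream of the MAP kinase phosphatase gene Dusp4 (298, 235 and 200), and in untranslated exons of Hyal2 (340, 247 and 181) and Pla2g7 (279, 345 and 250). Even these stayed below a rank of 50 in every list.

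The rule did not use position. Of the 1876 regions 31.2% (29.1 to 33.3) lay within 1 kb of an annotated TSS, against 37.9% of all regions, 43.0% of those in all 4 lists and 43.1% of those in all 4 lists with a similar Veh score. Regions held by Veh alone were more distal still, with 23.2% within 1 kb. The median distance to a TSS was 5277 bp here, 2546 bp for the regions in all 4 lists and 6514 bp for those in Veh alone. Introns held 50.3% of the regions, against 46.5% of all regions, while 34.6% against 34.1% were intergenic, 9.43% against 12.7% lay in untranslated and 3.25% against 3.85% in coding exons. Their central 200 bp had a median GC content of 49.5%, against 53.5% in the regions in all 4 lists. Chromosomes held between 4.05% (13) and 6.70% (19) of their regions in the set, apart from Y with 0 of 9 regions. Another region of the set lay within 10 kb for 7.14% of them and within 100 kb for 38.6%. The spacing of other sets of regions was not measured, so these shares stand without a reference.

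Sequence was not used by the rule either, and 1874 regions on the assembled chromosomes were searched. The NF-kB motif was found in 145 of them (7.74%, 6.61 to 9.04), against 4.30% of all regions, 3.72% of those in all 4 lists and 5.09% (4.17 to 6.20) of those in all 4 lists with a similar Veh score. The contrast with the other regions that lacked a T0 peak was larger. It was found in 1.13% (0.809 to 1.59) of the regions held by Veh alone, in 2.52% (1.77 to 3.57) of those held by Veh and LPS and in 2.33% (1.23 to 4.37) of those held by Veh and T0-LPS. Regions held only by LPS and T0-LPS carried it in 25.4% (22.8 to 28.1). Low shares were also found in regions with a T0 peak: 0.935% (0.318 to 2.71) of those lacking only an LPS peak and 1.43% (0.880 to 2.31) of those lacking only a T0-LPS peak. The 51 regions that lacked only a Veh peak carried it in 13.7% (6.81 to 25.7). A low share was thus not particular to regions without a T0 peak. The share was 7.67% in the regions with no missing T0 number. A match is a run of letters and does not show that a factor was bound.

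The IRF motif (GAAANNGAA) was found in 12.9% of the regions (11.4 to 14.5), against 8.06% of all regions, 8.02% (6.86 to 9.37) of those in all 4 lists with a similar Veh score and 8.01% (7.08 to 9.05) of those held by Veh alone. Regions more than 1 kb from a TSS carried it in 15.7%, against 10.2% of all such regions, and those nearer a TSS in 6.67% against 4.64%. An NF-kB or an IRF match was present in 375 regions (20.0%), against 12.0% of all regions, and both in 11. Regions held by Veh and LPS carried the IRF motif in 9.06% (7.56 to 10.8), those held by Veh and T0-LPS in 11.4% (8.60 to 15.0) and those held only by LPS and T0-LPS in 14.1% (12.1 to 16.4), and the last 2 intervals overlap that of the regions.

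Most other motifs were found about as often as in all regions. AP-1 (TGANTCA) was matched in 17.8% of the regions and 16.6% of all, and in 13.4% of those in all 4 lists with a similar Veh score, which lay nearer to TSSs. The nuclear receptor half-site (AGGTCA) was matched in 11.2% and 11.9%, and DR4, searched with up to 2 mismatches, in 2.08% and 1.94%. For PU.1 (GAGGAAG) the shares were 19.7% and 21.0%, for C/EBP (TTGCNNAA) 11.4% and 10.7%, for RUNX (TGTGGTT) 7.20% and 6.94% and for the cyclic AMP response element (CRE) 1.28% and 1.09%. More than 1 kb from a TSS, however, PU.1 was matched in 22.3% (20.1 to 24.6) of the regions and 26.5% (25.9 to 27.1) of all. Nearer a TSS its shares were 14.0% (11.4 to 17.1) and 12.1% (11.6 to 12.7). CTCF was matched in 24 regions, 1.28% against 0.851% of all, a ratio of 1.51 (1.01 to 2.23) that was 1.18 in the regions with no missing T0 number. Matches of different motifs can overlap, and a DR4 match can contain the half-site. The plot of motif shares shows the NF-kB and IRF points of the regions to the right of the share of all regions and the half-site point beside it.

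**Figure D3:**
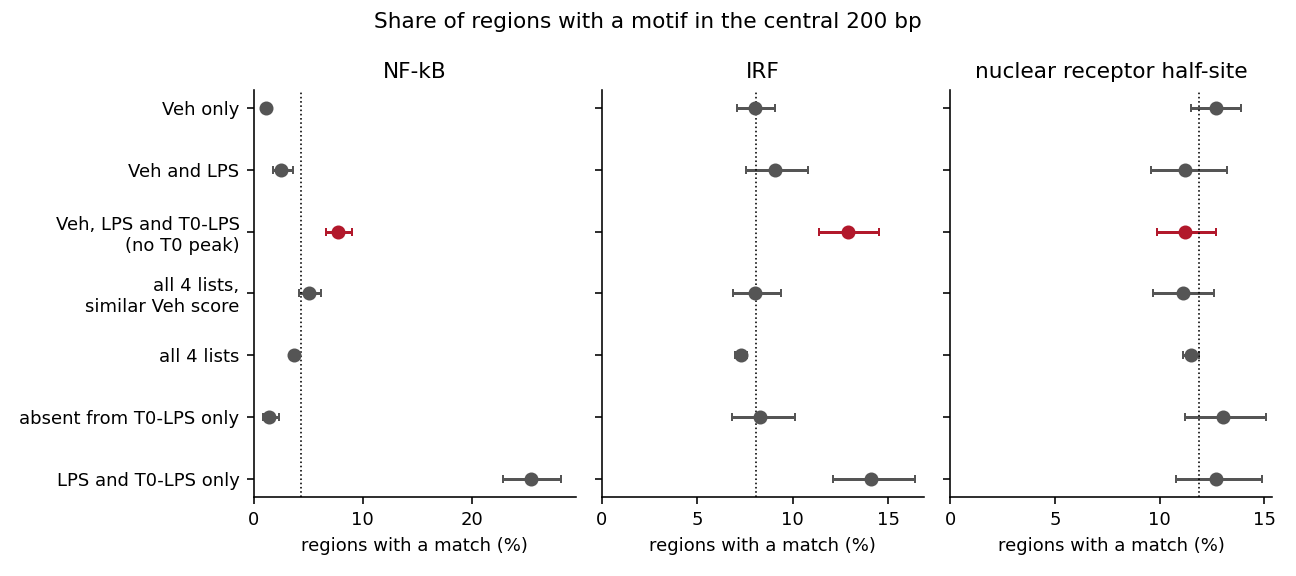
Share of regions with a motif match in the central 200 bp (horizontal axes, %) for 7 sets of regions named by the lists that hold them (vertical axis), with 95% Wilson intervals for counting error and a dotted line at the share of all regions. The 1874 regions held by Veh, LPS and T0-LPS (red) had NF-kB in 7.74% and IRF in 12.9%, against 1.13% and 8.01% of regions in Veh alone.

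Motif and rank went together for NF-kB. The 145 regions with the motif had median scores of 130 in Veh, 222 in LPS and 201 in T0-LPS, whereas the 1729 without it had 150, 149 and 126. Their rank in the LPS lists (mean of both) exceeded that in Veh by a median of 20.4 points (quartiles 3.79 and 38.3), against 3.27 points, and 80.0% of them ranked higher in both, against 51.7%. Of the 469 regions whose rank rose most (by 13.0 points or more) 18.8% (15.5 to 22.5) held the motif. In the 3 lower groups of about equal size, the last with changes from -38.3 to -0.839, 4.49%, 4.70% and 2.99% did. The same was seen where a T0 peak was present: among regions in all 4 lists with a similar Veh score, the 92 with the motif changed by a median of 19.2 points and the 1715 without it by 5.23. With the IRF motif the change was 5.90 points and 58.9% ranked higher in both, against 3.42 points and 53.2% without it. This was not particular to IRF: the values were 5.48 and 61.0% with AP-1, and 5.24 and 62.6% with C/EBP. In the 24 regions with CRE they were 9.89 and 70.8%. With each of the other motifs the change was 4.15 points or less. Among the regions in all 4 lists with a similar Veh score, the change was 9.60 points with IRF and 5.28 without it. The change exceeded 20 points in 73 of the 145 regions with NF-kB (50.3%), in 40 of 230 with IRF alone (17.4%) and in 191 of 1499 with neither (12.7%). Because LPS and T0-LPS enter the rule only through the presence of a peak, these changes are restricted by it at their lower end, and they are given as description.

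**Figure D4:**
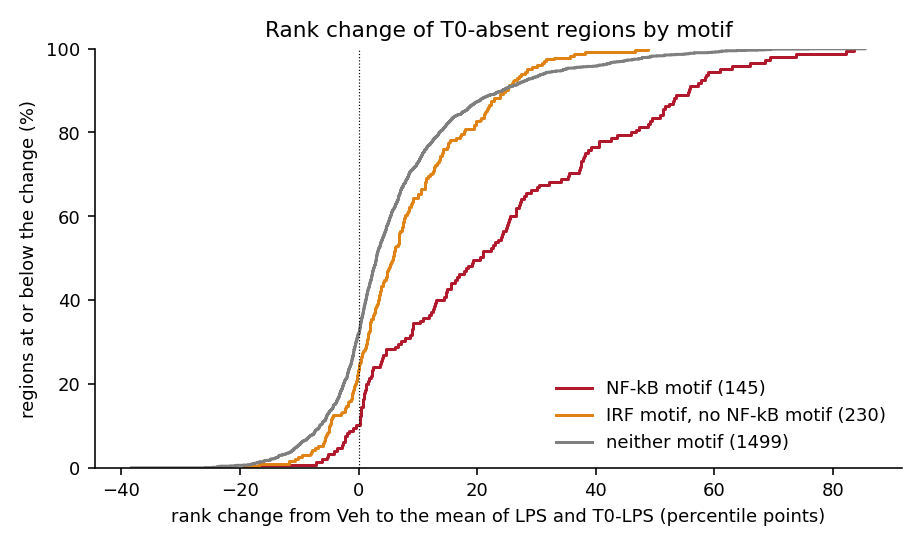
Cumulative share of regions (vertical axis, %) by the change of rank from Veh to the mean of LPS and T0-LPS (horizontal axis, percentile points), for regions with an NF-kB motif (red, 145), with an IRF but no NF-kB motif (orange, 230) and with neither (grey, 1499). The red curve lies to the right of both others, with a median of 20.4 points against 5.84 and 3.00.

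Of the 21924 protein-coding genes, 24.9% had a region of the set within 100 kb of a TSS and 5.26% within 10 kb. The 10 lists of genes in macrophage and LXR biology are to be read against these shares. Inflammatory cytokines and chemokines had one within 100 kb in 20 of 31 genes (64.5%), costimulation and antigen presentation in 13 of 18 (72.2%), NF-kB subunits and inhibitors in 11 of 18 (61.1%), macrophage transcription factors in 15 of 25 (60.0%) and interferon response in 14 of 25 (56.0%). Leukocyte adhesion and migration had 12 of 26, phagocytosis and Fc receptors 9 of 20, LXR and sterol targets 9 of 22, TLR4 signalling 7 of 24 and housekeeping genes 5 of 20. A gene with more enhancer regions around it has more chances to lie near one of the set. Of the distinct regions within 100 kb of the cytokine genes 9.49% (24 of 253) belonged to the set, next to 4.98% of all regions, whereas the share was 7.69% for costimulation, 6.94% for interferon response, 6.81% for NF-kB, 4.26% for adhesion, 4.02% for TLR4 signalling, 4.00% for LXR targets and 3.21% for housekeeping genes. In all, 68 regions of the set had a gene of the 10 lists as the nearest, and 47 of them (69.1%) ranked higher in both LPS lists than in Veh, next to 53.9% of the whole set.

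Near the 9 cytokine and chemokine genes concerned, 10 regions were found, of which 9 ranked higher in both LPS lists and 3 held NF-kB. Beside Il12b they included a region in an intron of another transcript 67666 bp from Csf2, which encodes GM-CSF, with 91 in Veh, 375 in LPS and 333 in T0-LPS. One 19130 bp upstream of Ccl2, the monocyte chemoattractant, held NF-kB and scored 216, 206 and 202, while its rank rose from 14.4 to 21.6 and 29.1. A region 20775 bp upstream of Il1a went from 78 to 291 and 255 and held NF-kB, but 2 T0 numbers were missing there. Il10, the anti-inflammatory cytokine, had a region 14137 bp from its start that scored 235, 212 and 124, and Il18 one 1034 bp upstream that scored 178, 169 and 132. The Il12b locus held 4 regions within 100 kb of its TSS among 10 enhancer regions in all. The other 3 lay beyond the gene near Ublcp1 (135, 328 and 192, and 127, 265 and 171) and near Rnf145 (105, 142 and 110).

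The genes with the most regions within 100 kb were Ccl6 and Ccl9, neighbours in the CC chemokine cluster of chromosome 11, with 5 each. Around Ccl9 these were 5 of 22 enhancer regions in all. In all, 83 genes had 4 or more. The 5 regions lay 2386 bp upstream of Ccl9 (99 in Veh, 282 in LPS and 328 in T0-LPS), 3347 bp from the start of Ccl4 (85, 209 and 122), 25421 bp upstream of Ccl6 (84, 130 and 62) and 10665 and 13958 bp upstream of Ccl5 (127, 202 and 200, and 182, 189 and 257). These chemokines draw monocytes and T cells to inflamed tissue. All 5 scored higher in LPS than in Veh, and the Ccl6 region scored lowest in T0-LPS.

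Adhesion and migration genes were nearest to 7 regions, of which 6 ranked higher in both LPS lists. Icam1 encodes the endothelial and leukocyte ligand of β2 integrins, and the region in its intron, 6089 bp from the start at chr9:21021852-21022296, scored 112 in Veh, 438 in LPS and 340 in T0-LPS. Its 2 NF-kB matches stand within the window printed above. Rac2, a GTPase of the leukocyte cytoskeleton, had a region 1092 bp from its start that went from 73 to 271 and 206, and the actin regulator Dock8 one that went from 86 to 188 and 127. An intron of Cd44, the hyaluronan receptor, held a region with NF-kB that went from 70 to 318 and 257, with 1 T0 number missing. A region 45281 bp from Ccr1, a receptor of Ccl5 and Ccl9, scored 71, 136 and 108, and one upstream of Ccr7 scored 127, 97 and 153 with 1 number missing. Among phagocytosis genes, the Fc receptor genes Fcgr2b and Fcgr4 had regions that scored 317 in Veh, 316 in LPS and 292 in T0-LPS, with 2 numbers missing, and 240, 168 and 118.

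At genes of TLR4 and NF-kB signalling the changes were smaller. The start of Myd88, the adaptor of TLR4 and the IL-1 receptors, held a region with an NF-kB and an IRF match that scored 232 in Veh, 242 in LPS and 132 in T0-LPS. An intron of Tab2, which links ubiquitin chains to the kinase TAK1, held one at 158, 145 and 168, and Map3k7, the TAK1 gene itself, one at 334, 199 and 124 with 2 numbers missing. By rank the Tab2 region rose from 6.80 in Veh to 9.75 and 21.4, and the Map3k7 region fell from 32.4 to 20.4 and 10.3. Cd14 and Map3k8 had regions of at most 120 in any list. Nfkb1, the p50 precursor, had 2 intronic regions, at 218, 186 and 166 and at 166, 116 and 101. By rank the first rose from 14.9 in Veh to 17.7 and 20.7, and the second fell from 7.60 to 4.63 and 5.10. Regions near Nfkbiz, an atypical nuclear IκB protein (223, 222 and 122), and 124 bp upstream of its relative Nfkbid (98, 135 and 159) followed no common order, and the Nfkbid region held an NF-kB match.

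Interferon genes were nearest to 7 regions. Rsad2, the antiviral enzyme viperin, had one with 2 IRF matches 16934 bp from its start that went from 98 in Veh to 296 in LPS and 195 in T0-LPS. Gbp5, an interferon-induced GTPase, had one 71 bp upstream with an NF-kB and an IRF match that went from 149 to 466 and 339, but 5 T0 numbers were missing there. Regions near Mx1 (135, 172 and 218) and Irf8 (127, 166 and 200) scored highest in T0-LPS. In a coding exon of Ifih1, the RNA sensor MDA5, the scores were 196, 252 and 197, and 83 bp upstream of Irf1 they fell from 196 to 137 and 101, with a T0 peak 154 bp away.

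**Figure D5:**
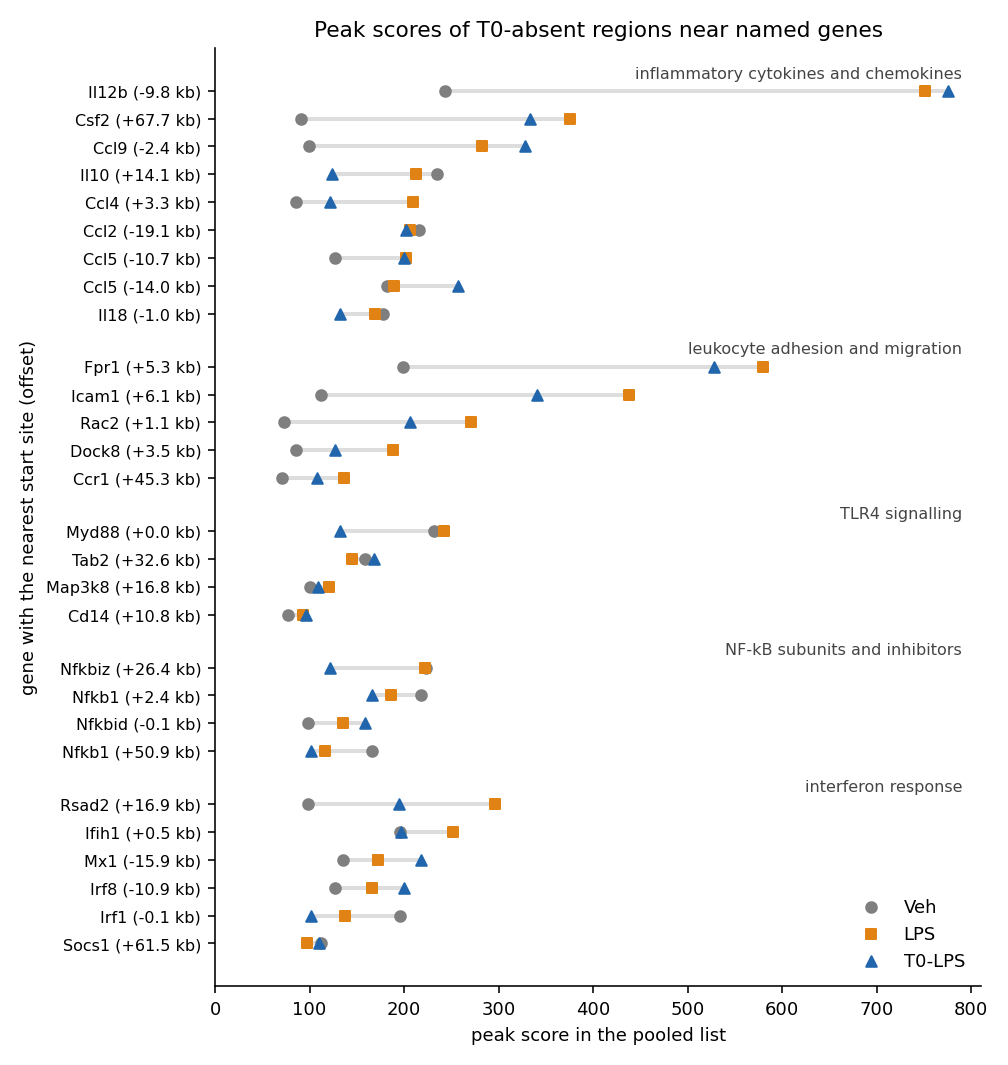
Peak scores in the Veh (grey circles), LPS (orange squares) and T0-LPS lists (blue triangles) of the regions without a missing T0 number whose nearest gene belongs to 5 gene lists, with the offset from the start site in kb. Il12b, Fpr1, Icam1 and Csf2 stand far to the right in both LPS lists (Il12b at 751 and 775), and the TLR4 and NF-kB regions lie below 250 in every list.

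Transcription factor genes of macrophages were nearest to 18 regions, of which 8 ranked higher and 3 lower in both LPS lists. Bhlhe40, a repressor that macrophages use in proliferation and in cytokine control, had a region 27736 bp from its start with NF-kB that went from 174 in Veh to 964 in LPS and 713 in T0-LPS, with 1 T0 number missing. Klf6 had 4 regions, of which one with NF-kB scored 215, 282 and 248 and another, 331733 bp away, 191, 159 and 67. Near Cebpa the scores were 200, 237 and 74, and near Batf, an AP-1 family member, 261, 235 and 103, so both were lowest in T0-LPS. The regions near the immediate early gene Atf3 (225, 142 and 133) and near Klf4 (187, 115 and 95, 1 number missing) ranked highest in Veh, and one near Junb (126, 111 and 96) ranked between 3.44 and 4.24 in the 3 lists. Cebpb had one 72876 bp away that scored 149, 258 and 178.

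Costimulation and antigen presentation genes were nearest to 7 regions, of which 6 ranked higher in both LPS lists. Beside Cd80, the checkpoint ligand genes Cd274 (150, 290 and 216) and Pdcd1lg2 (142, 290 and 183) had intronic regions, each with 1 T0 number missing. In an intron of Ciita, the master regulator of MHC class II genes, the scores fell from 238 in Veh to 173 in LPS and 91 in T0-LPS.

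The 22 genes listed as LXR and sterol targets included Abca1, Abcg1, Srebf1 and Nr1h3, and also the receptor genes Nr1h2 and Nr1h4. Within 100 kb the list's share of regions (4.00%) lay near that of all (4.98%). Only Lpl, the lipoprotein lipase, was the nearest gene to a region, next to 7.49% of all protein-coding genes. This region lay between genes 31331 bp from the Lpl start at chr8:68911680-68911963. It scored 135 in Veh, 191 in LPS and 162 in T0-LPS, and held the AP-1 and NF-kB matches shown above but no DR4 match. Housekeeping genes were likewise nearest to a single region, 826 bp upstream of B2m, with scores of 115, 106 and 132 and 1 T0 number missing.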

How the data were processed

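BMDM ATAC-seq libraries of 4 groups (Veh, T0, LPS, T0-LPS; 4 each) were used as 4 deposited peak lists, 1 per group. The authors trimmed with cutadapt, aligned with Bowtie2 to mm10, removed duplicates, called peaks on the 4 libraries of a group together with MACS2 (q 0.001, shift 88, extension 177), and kept those at macrophage enhancers marked by H3K27ac or H3K4me2. The peak score in the deposited lists is the peak caller's; its scale is not stated in the files.

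Peaks were merged (overlap of at least 1 bp), annotated with GENCODE vM21 basic and read from GRCm38.p6 (RefSeq) with pysam 0.24.0. Motifs were searched in the central 200 bp. Merging, missing peak numbers and motif search were tested on simulated data. With 1 pooled list per group no test between groups was possible, and regions are not replicates. The regions and gene lists were chosen with earlier results of these data known.

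Named regions were, among those with no missing T0 number, the 8 highest by lowest rank, the 6 largest rises and 6 largest falls from Veh to both LPS lists, and the 3 largest rises and 3 largest falls from LPS to T0-LPS. They were joined by the 3 highest Veh scores per gene list, the 5 genes with most regions within 100 kb (ties in alphabetical order, of which the 2 with 5 regions are described) and 3 cases on either side of the threshold. Other regions nearest to listed genes were named after their values were seen, as were the Nckap1, Bicdl1, Itgb8 and Hs1bp3 regions, the Il12b neighbours and the split by missing numbers over ranks. Sequence windows that overlapped an untranslated region were passed over, also after values were seen. A result for 1 withheld item is not reported here.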

Additional observations from a re-analysis of the deposited data

How the results depend on the processing

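Of 43 alternative values for the main results, 25 stayed within counting error or within 1.5 times the count. The regions numbered 1148 if Veh, LPS and T0-LPS scores had to reach 100, 745 with all lists shortened to the length of the T0 list, and 1200 without missing T0 numbers. It was 2173 with 50% reciprocal overlap, 1932 with peaks taken singly and 1475 without a T0 peak within 1 kb. The share near a TSS was 23.8% within 500 bp, 49.1% within 5 kb and 26.9% for protein-coding TSSs. In the whole merged region, where wider regions hold more letters, motif share ratios (regions over all regions) were 1.37 for NF-kB, 1.19 for IRF, 0.928 for AP-1, 0.800 for the half-site and 0.740 for DR4, against 1.80, 1.59, 1.07, 0.943 and 1.07 in the central 200 bp. With regions of similar Veh score as the background, they were 1.52 for NF-kB and 1.33 for AP-1. With percentiles in each whole list, 59.0% of regions ranked higher in LPS than in Veh, 49.9% higher in T0-LPS than in Veh (a reversed majority) and 64.3% higher in LPS than in T0-LPS. The whole-list percentiles are taken over different sets of regions, which the lists' lengths set. Of the 208 distinct genes in the 9 lists without housekeeping, 109 had a region within 100 kb, 34 within 10 kb and 57 as the nearest gene. Depth is unknown, so how many weak T0 peaks fell short of the caller's threshold could not be told. No paired analysis was possible because each group had a single pooled list.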
